A study of Homo sapiens with 4 samples.

Results

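The 150 genes whose mRNA was most concentrated in the heavy polysomes of HEK293T cells are described here, with what they share. Each was chosen by its own counts: genes with 100 or more counts summed over 4 libraries were scaled to CPM, the usual unit for counts relative to the total of a library, and ranked by heavy polysome CPM as a percent of the CPM summed over the libraries, called the heavy share below. The table held 19948 genes, of which 4343 reached 100 counts. Symbols of 22 prefixes (among them PSM, HNRNP, EIF, CCT and SLC) were dropped by the rule, 452 genes in all, which left 3891 eligible genes. The 150 members were 3.86% of these. Since the heavy share chose the members, their shares are given as a description, and no test was made of them.

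HEK293T is an established line of human embryonic kidney origin. The cells, grown in complete DMEM, received cycloheximide at 100 ug/mL for 10 min, and a lysate of 3 dishes was spun through sucrose of 10% to 50%. No other drug and no genetic change is named in the labels. RNA from the free, monosome, light polysome and heavy polysome pools was bound by its cap to beads carrying a mutant of eIF4E, and its polyadenylated molecules were read directly on nanopores, with 1 library per pool. With no replicate, no p-value or spread between replicates can be given. Intervals of the heavy share or the ratio of a single gene cover 95% counting error only. Those of a median or of a percent of genes take genes as independent draws, also at 95%. Total counts ranged from 355509 in the free library to 1564531 in the heavy polysome library. How much RNA each pool held was not used here, so every value is relative to its own library. All 7 markers of the cell line had counts (6 to 850 each), while 3 of 9 markers of other cell types had any, with at most 4.

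Ribosomes load one after another onto an mRNA, and cycloheximide holds them in place, so that an mRNA sinks further into sucrose the more ribosomes it carries. A longer coding sequence has room for more of them, and frequent initiation fills that room. A start codon in the 5′ UTR can capture ribosomes before they reach the main coding sequence, and the TOP motif, an unbroken stretch of pyrimidines behind the cap, lets a cell hold back the mRNAs of ribosomal proteins and elongation factors.

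The members took 5.93% of the heavy polysome counts, against 0.595% of the light polysome, 0.373% of the monosome and 0.191% of the free counts. Their heavy share ran from 80.4% to 93.3%, with a median of 82.9%, a range set by the rule. The median of all eligible genes was 44.8%, with quartiles of 24.1% and 63.5%. Outside the heavy polysomes little was counted: the median member had 224.5 heavy polysome counts, against 22 from light polysomes, 13 from monosomes and 1 from the free pool. In the free library 48 of the 150 members had no count, against 588 of all 3891 eligible genes. A count of 0 there also raises the heavy share that chose the members. In all, 104 members had fewer than 3 free counts, which is the number that a count of 0 still allows.

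**Figure D1:**
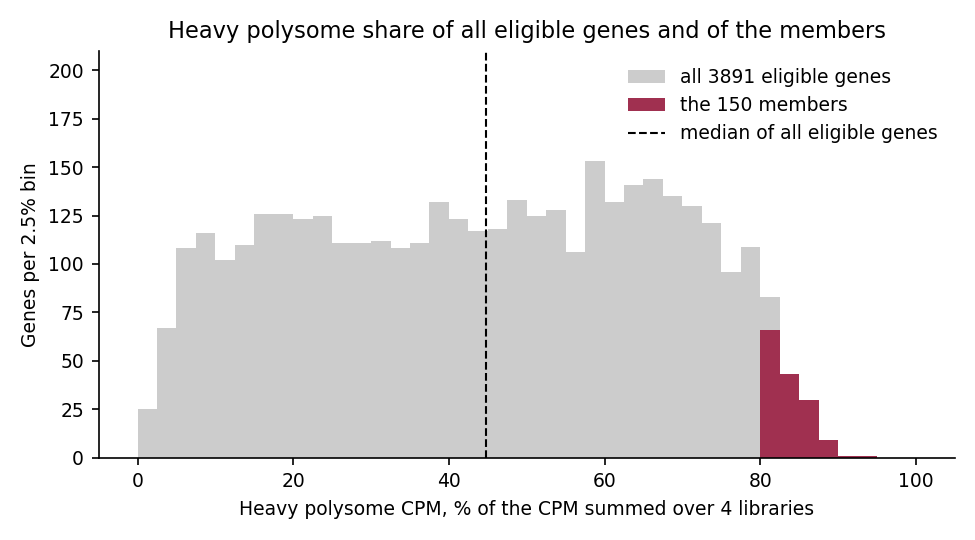
The number of genes (vertical axis) is plotted against heavy polysome share in percent (horizontal axis, bins of 2.5%), for all 3891 eligible genes in grey and for the 150 members in red. The members are the upper edge of a broad distribution whose median is 44.8%, and no gap separates them from the next genes.

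The last member was PLEKHB2, a membrane-binding adaptor, with a heavy share of 80.4%. It was preceded by USP7 (80.7%), a deubiquitinase, the Polycomb subunit EED (80.7%), the ribosome assembly factor UTP18 (80.6%) and the splicing factor PRPF4 (80.5%). Just outside lay the HSP70 partner ST13, METAP1, which removes the initiator methionine, the cytosolic isocitrate dehydrogenase IDH1, CBS, which makes cystathionine, and the cargo receptor LMAN1, with 80.4%, 80.4%, 80.4%, 80.4% and 80.3%. Counting error blurs this border. The lower bound of the share lay above the share of PLEKHB2 in 35 members, and the upper bound of 233 genes outside the set reached above it. Among the dropped symbols 30 genes had a share at or above that of PLEKHB2, led by the zinc transporter SLC39A14 (92.4%), the cohesin subunit RAD21 (91.3%), the proteasome subunits PSMD3 (89.6%) and PSMC2 (88.9%) and the RNA-binding protein HNRNPA2B1 (89.2%). They included 8 of 19 HNRNP genes, 6 of 37 PSM genes, 4 of 42 EIF genes and 2 of 7 CCT genes.

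AASDHPPT (chromosome 11, 106075501 to 106098710), which attaches the phosphopantetheine arm to carrier proteins, ranked highest. It had 0, 12, 4 and 255 counts in the free, monosome, light polysome and heavy polysome libraries, a heavy share of 93.3% (89.4 to 95.9). DLD (chromosome 7, 107890970 to 107931730), the subunit shared by the pyruvate and oxoglutarate dehydrogenase complexes, had 0, 7, 6 and 145 counts and a share of 90.9% (85.0 to 94.6). Both lack a count in the free library, and with 3 counts there their shares would be 89.0% and 84.0%. They were the only members at 90% or more. The splicing factor LUC7L3 had 1, 3, 5 and 109 counts (89.2%), and its lower bound of 78.4% lies below the border of the set. SSB, the La protein that binds the uridine-rich ends of new transcripts, had 1, 10, 5 and 175 counts (89.1%). In these small profiles the rank rests on a handful of molecules outside the heavy polysomes.

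Deeper profiles near the top were better resolved. NUDC, a dynein and chaperone partner, had 6, 45, 110 and 1573 counts and a heavy share of 89.0% (87.1 to 90.7). ANP32A, an acidic nuclear histone-binding protein, had 9, 52, 107 and 1607 counts, or 88.3% (86.3 to 90.1). Other members among the 20 highest included PTOV1 (87.9%), the stress granule protein G3BP2 (87.8%), the phospholipid-binding ANXA5, the actin-binding CORO1C, the vesicle protein SYPL1, the adhesion scaffold ILK, AHCYL1, the prohormone-processing carboxypeptidase CPE, the nuclear lamina protein TMPO, and the mutase copy PGAM4 with the glycolysis genes PGK1, LDHA and PGAM1, all given below. Their shares spanned less than the width of most of their intervals, so their order is not resolved.

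**Figure D2:**
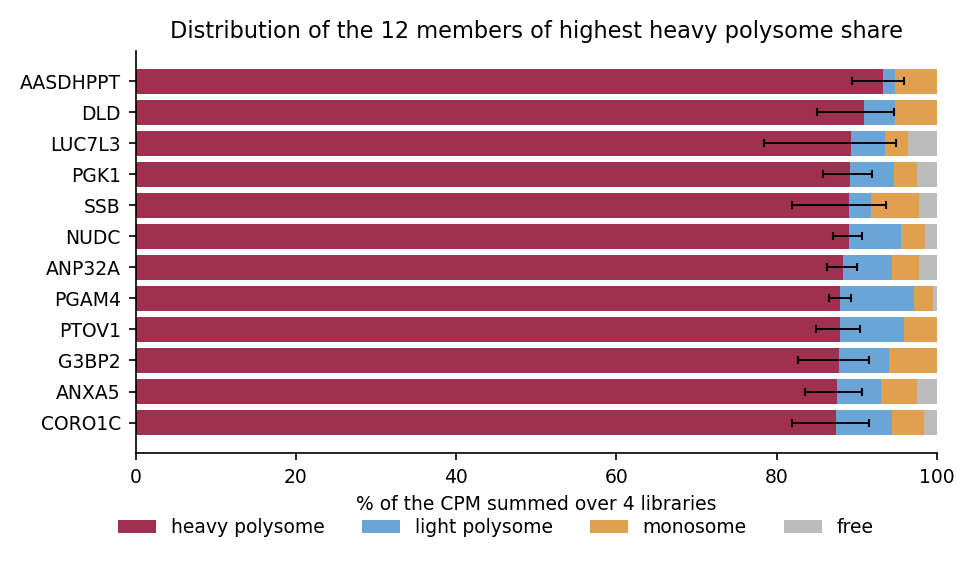
For the 12 members of highest heavy share, bars show the percent of the summed CPM (horizontal axis) in the heavy polysome (red), light polysome (blue), monosome (orange) and free (grey) libraries; black lines are 95% counting intervals of the heavy share. The shares run from 93.3% for AASDHPPT downward, and the intervals of neighbours overlap.

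The most counted members had the narrowest intervals. ACTB, the cytoplasmic beta-actin, had 125, 613, 1245 and 11187 counts, a heavy share of 81.3% (80.5 to 82.1). NPM1, the nucleolar chaperone nucleophosmin (chromosome 5, 171387116 to 171411137), had 112, 696, 681 and 9715 counts, or 82.8% (81.8 to 83.7). With ENO1 (54) these members had the most free counts. SERBP1, which binds idle ribosomes and mRNA, had 25, 250, 501 and 4812 counts (83.8%). Other members with over 1000 counts included the nucleolar protein NCL (82.4%), the membrane glycoprotein BSG (81.3%), LRRC59 of the endoplasmic reticulum (86.1%), the HSP90 partner FKBP4 (83.1%) and the replication clamp PCNA (80.9%). Members made up 3.81%, 4.40%, 3.45% and 3.14% of eligible genes with 100 to 200, 200 to 500, 500 to 1000 and 1000 or more counts, so they were found at every depth, while the median heavy share of all eligible genes fell from 51.0% to 21.2% over these classes.

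Some of these counts cannot be assigned to 1 locus. PGAM1 (chromosome 10, 97426160 to 97433441), the glycolytic phosphoglycerate mutase, had 5, 72, 304 and 2834 counts (87.0%). PGAM4 (chromosome X, 77968874 to 77969638), a single-exon copy on the minus strand, had 3, 52, 229 and 2287 counts (87.9%). Their coding sequences are both 762 nt long and differ at 13 bases, an identity of 98.3%. Bases 28 to 87 of each, counted from the A of the start codon, are printed 5′ to 3′ from GENCODE 29 transcripts because they show how little tells the reads apart; capitals mark the 3 bases that differ.
PGAM1: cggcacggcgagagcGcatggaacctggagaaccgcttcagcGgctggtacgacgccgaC
PGAM4: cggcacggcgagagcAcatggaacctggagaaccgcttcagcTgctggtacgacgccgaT
How such reads were counted is not stated in the sources, so the values of PGAM1 and PGAM4 are uncertain.

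CLEC2D shows the same difficulty. It codes for a lectin-type ligand known from lymphoid cells, and was the third most counted member, with 52, 404, 421 and 6755 counts and a share of 85.5% (84.5 to 86.5). Within its locus (chromosome 12, 9664969 to 9699555) lies a processed pseudogene, AC007068.1, that shares 844 nt with a CLEC2D transcript at 100% identity, and a stretch of 538 nt matches NPM1 at 96.8%. Reads of CLEC2D, the pseudogene and NPM1 cannot be told apart from these counts. RBMXL1 (82.2%), a relative of the splicing regulator RBMX, shares 2019 nt with it at 95.7%; RBMX itself ranked 166, outside the set. In all, 22 of the 150 members (14.7%) shared 500 nt or more at 95% identity with a transcript of another locus, against 10.7% of eligible genes. Most partners were processed pseudogenes, as for LDHA, PGK1, NUDC, SERBP1 and FEN1. Exons of 22 members overlapped by 50 nt or more with a protein-coding gene on the opposite strand (14.7%, against 16.9% of eligible genes), and the use of strand in counting is not given. The nuclease FEN1 (220 counts) overlaps TMEM258 (1643 counts), and PPP2R5D (275 counts), a phosphatase subunit, overlaps MEA1 (1521 counts).

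The clearest shared property was a coding sequence of middle length, a property of the annotation that the rule did not use. The median coding length of the members was 1252.5 nt (interval 1191 to 1329; quartiles 1062 and 1510), against 996 nt (quartiles 621 and 1442) for all eligible genes. Of the members 86.7% lay between 600 and under 1800 nt, against 61.9% of eligible genes. No member came from the 173 genes under 300 nt, and 2 came from the 737 genes of 300 to under 600 nt, among them CLEC2D (573 nt). Other short members were the tetraspanin TSPAN13 (612 nt), PLEKHB2 (663 nt) and ANP32A (747 nt). Members were 6.02%, 8.19% and 6.79% of the genes in the classes from 900, 1200 and 1500 nt up to 1800 nt, and the share declined on both sides. Among the 121 genes of 3000 nt or more there was 1 member, USP7 (3306 nt), with 0, 8, 10 and 83 counts. RBM10 (2790 nt), a splicing regulator, and PTGFRN (2637 nt), a membrane protein, came next in length. The median heavy share of all eligible genes followed a similar course, from 9.91% under 300 nt to 60.6% at 1500 to under 1800 nt and 44.3% at 3000 nt or more.

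**Figure D3:**
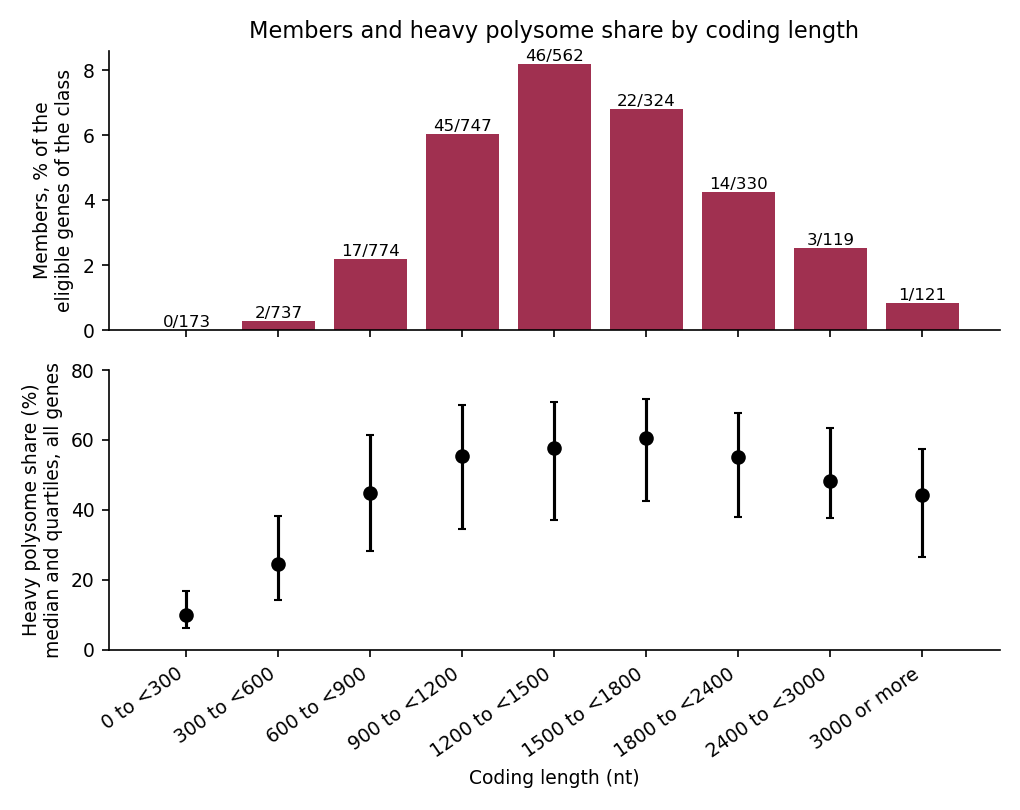
Above, bars give members as a percent of the eligible genes in each class of coding length (nt), with both counts printed; below, points and lines give the median and quartiles of the heavy share (percent) of all eligible genes in the class. Members peak at 8.19% between 1200 and under 1500 nt and are nearly missing under 600 nt and above 3000 nt.

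Members had fewer upstream start codons. An ATG lay in the annotated 5′ UTR of 47 of 149 members with a 5′ UTR of 10 nt or more (31.5%, Clopper-Pearson interval 24.2 to 39.7), against 51.7% of eligible genes. In the 150 genes chosen in the same way by their light polysome share it was 83.9%, in those chosen by monosome share 71.0% and in those chosen by free share 54.2%. The median 5′ UTR was 181.5 nt in members, 191 nt in all eligible genes and 256.5 nt in the light polysome set. The lower frequency was seen in each class of 5′ UTR length: 10.7% of members against 14.5% of eligible genes at 10 to under 100 nt, 18.5% against 40.5% at 100 to under 200 nt, 39.4% against 61.1% at 200 to under 300 nt, 52.4% against 79.2% at 300 to under 500 nt, and 76.9% against 94.5% beyond. The shortest class rests on 3 of 28 members, too few to show a difference, and the longest class holds 13 members. Genes without an upstream ATG were members in 5.56% of cases, those with 1 in 3.25%, and those with 5 or more in 1.36%. The exceptions include the collagen chaperone SERPINH1 with 12 upstream ATGs in 1435 nt, the corepressor TLE3 with 6, and G3BP2 and the ribonucleotide reductase subunit RRM2 with 5 each. These counts use 1 annotated transcript per gene, and which 5′ ends the cells used was not examined.

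The base at the third position of codons was less often G or C in members than in the table at large. The median share of G or C there (GC3) was 51.6% (interval 46.8 to 55.7) in members, 62.8% in all eligible genes and 76.8% in the light polysome set, and it was 51.3% in the monosome set and 56.6% in the free set. GC3 ranged widely among members, from 26.2% in RBMXL1 to 92.1% in the actin-bundling FSCN1, and ACTB (84.5%), BSG (87.8%) and the lamin LMNB2 (89.5%) were also high. Codons 21 to 40 are printed 5′ to 3′, with the third base of each codon in capitals, for the 3 members of highest heavy share.
AASDHPPT: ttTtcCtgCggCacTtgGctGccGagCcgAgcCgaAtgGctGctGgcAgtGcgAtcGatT
DLD: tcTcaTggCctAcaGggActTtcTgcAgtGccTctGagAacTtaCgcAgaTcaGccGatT
LUC7L3: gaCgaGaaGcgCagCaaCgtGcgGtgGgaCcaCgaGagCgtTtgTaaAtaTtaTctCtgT
The same codons follow for LRFN4, TMEM129 and PLPPR2, the light polysome genes of highest share with an annotated 5′ UTR.
LRFN4: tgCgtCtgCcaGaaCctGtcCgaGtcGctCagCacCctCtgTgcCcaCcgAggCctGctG
TMEM129: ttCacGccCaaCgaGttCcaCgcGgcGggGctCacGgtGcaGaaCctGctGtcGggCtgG
PLPPR2: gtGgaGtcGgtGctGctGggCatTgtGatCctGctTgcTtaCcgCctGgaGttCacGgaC
In these stretches 13, 7 and 14 of 20 codons end in G or C in the members, and 18, 20 and 17 in the light polysome genes. Over the whole coding sequence GC3 was 39.5%, 29.3% and 35.2% in the former and 82.7%, 85.6% and 78.4% in the latter. LRFN4, an adhesion protein, had 1, 7, 124 and 16 counts from free to heavy polysome.

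The GC3 difference rests on the light polysome library. With heavy CPM taken as a percent of the other 3 libraries only, leaving light polysomes out, the 150 highest genes had a median GC3 of 69.9%, above that of eligible genes, and shared 60 genes with the members; their upstream ATG frequency, 38.4%, and coding length, 1260 nt, stayed on the same sides. Among eligible genes, the median light polysome share rose from 20.8% at a GC3 under 40% to 40.5% at 80% or more, while the heavy share fell from 50.0% to 40.7%.

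**Figure D4:**
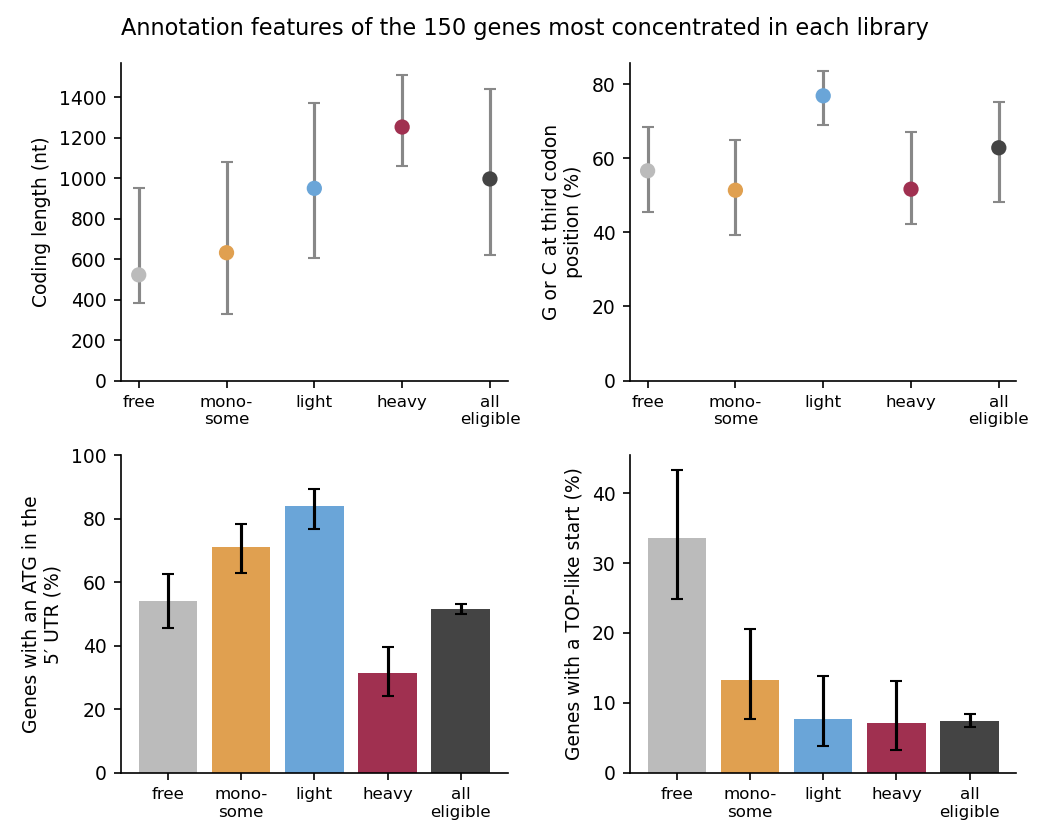
Each panel compares the 150 genes of highest share in the free, monosome, light polysome and heavy polysome (the members) libraries with all eligible genes: coding length in nt and GC3 in percent as median and quartiles, and the percent of genes with an ATG in the 5′ UTR and with a TOP-like start as bars with 95% Clopper-Pearson intervals. The heavy set has the longest coding sequences and the fewest upstream ATGs, the light set the highest GC3, and the free set the most TOP-like starts.

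Members were most frequent where these features coincided. The cuts used match the classes of each feature in which members were most frequent. A high percentage in the joint class was therefore largely set in advance, and the counts are descriptions. Among the 316 eligible genes with a coding length of 900 to under 1800 nt, no upstream ATG and a GC3 under 60%, 50 were members (15.8%). Among the 590 genes with none of the 3 features there were 2 (0.339%). With the length and the ATG feature but a GC3 of 60% or more, 25 of 443 genes were members (5.64%). With the length and a GC3 under 60% but an upstream ATG, 27 of 372 were (7.26%). Of members and eligible genes with 900 to under 1500 nt alone, an upstream ATG was found in 34.1% and 52.4%, and median GC3 was 53.1% and 63.6%. Members had a median of 10 exons against 8, and a median 3′ UTR of 1164 nt against 848 nt. A purine stood at position -3 before the start codon in 91.9% of members and 88.2% of eligible genes.

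A TOP-like start was about as frequent in the members as in the table at large. It was scored as a C at the annotated start followed by 4 or more pyrimidines, in RefSeq windows of GRCh38.p14 that were found for 126 members and 3182 eligible genes. It was found in 9 members (7.14%) and 7.45% of eligible genes, against 33.6% of the free set. The members with it were NPM1, SERBP1, the deacetylase HDAC2, ILF2 and KHDRBS1, which bind RNA, the translocon subunit SEC63, CKAP4, PTGFRN and the fatty acid oxidation enzyme HADH. Windows of 30 bases around the start are printed to show these ends beside those of other members and of TOP genes with low heavy shares. The 10 bases from the start on are in capitals.
NPM1, chr5:171387829-171387858, plus strand: aagcgcggggagcctgcgtcCTTTCCCTGG
SERBP1, chr1:67430393-67430422, minus strand: cggaagagaagacggcccccCTCTCTCGGC
ENO1, chr1:8878677-8878706, minus strand: tcggcgcgggcggcgcggacAGTATCTGTG
LDHA, chr11:18394543-18394572, plus strand: cctcccgcgcccagctcagaGTGCTGCAGC
NCL, chr2:231464475-231464504, minus strand: caggctcagtctttcgcctcAGTCTCGAGC
ANP32A, chr15:68820886-68820915, minus strand: gcctccacggcgatcaggttAGTGTGCGCC
RPLP1, chr15:69452798-69452827, plus strand: gctgcgtataggcgcgagagCCCCTTTCCT
RPS6, chr9:19380227-19380256, minus strand: gcgctaagcggaagttggccCTCTTTTCCG
TPT1, chr13:45341174-45341203, minus strand: tggggagcggctgagtcggcCTTTTCCGCC
NPM1 and SERBP1 begin with C and pyrimidines like the ribosomal proteins RPLP1 and RPS6 and the growth-related TPT1, yet their heavy shares were 82.8% and 83.8%, against 1.70%, 21.4% and 5.36%. Coding length also differs between them: 882 nt and 1161 nt in NPM1 and SERBP1, 342 nt, 747 nt and 516 nt in the others. RPL3 and EEF2, TOP genes of 1209 nt and 2574 nt, had shares of 39.6% and 31.0%.

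Known promoter motifs, searched on both strands from 250 bases before to 50 bases after the start, were about as frequent as elsewhere. GGGCGG was present in 73.8% of members and 74.8% of eligible genes, CCAAT in 42.1% and 40.0%, CCGGAAG in 19.8% and 23.4%, CACGTG in 13.5% and 11.2%, and TATAAA in 3.97% and 4.40%.

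By function 81 of the 150 members fell in at least 1 of 24 lists (54.0%), against 26.1% of eligible genes. These lists were drawn up with earlier results of these data known, so their counts are descriptions. Members were 3.86% of all eligible genes, but 7.97% of the 1016 eligible genes found in any list. A list near 7.97% is therefore not set apart from the lists as a whole. Glycolysis had the highest percentage, with 4 of 18 eligible genes, but it rests on PGK1, LDHA and PGAM1, which share sequence with other loci. With all such genes left out it was 1 of 12, and 128 of 3474 eligible genes (3.68%) were then members. PGK1 (chromosome X, 77910739 to 78129296), which makes ATP from bisphosphoglycerate, had 4, 17, 36 and 623 counts and a share of 89.2% (85.8 to 91.9). LDHA, which turns pyruvate to lactate, had 31, 131, 310 and 4142 counts, or 87.1% (85.8 to 88.3). ENO1, the enolase, had 54, 250, 592 and 5163 counts, or 81.8% (80.5 to 83.0), and PGAM1 is given above. The pathway was not uniform. PKM, the pyruvate kinase, lay at 75.8%, GPI at 62.2%, TPI1 at 59.5% and GAPDH at 59.4% (58.2 to 60.5). GAPDH had 818, 1203, 1300 and 9306 counts, so its free count was above that of every member.

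**Figure D5:**
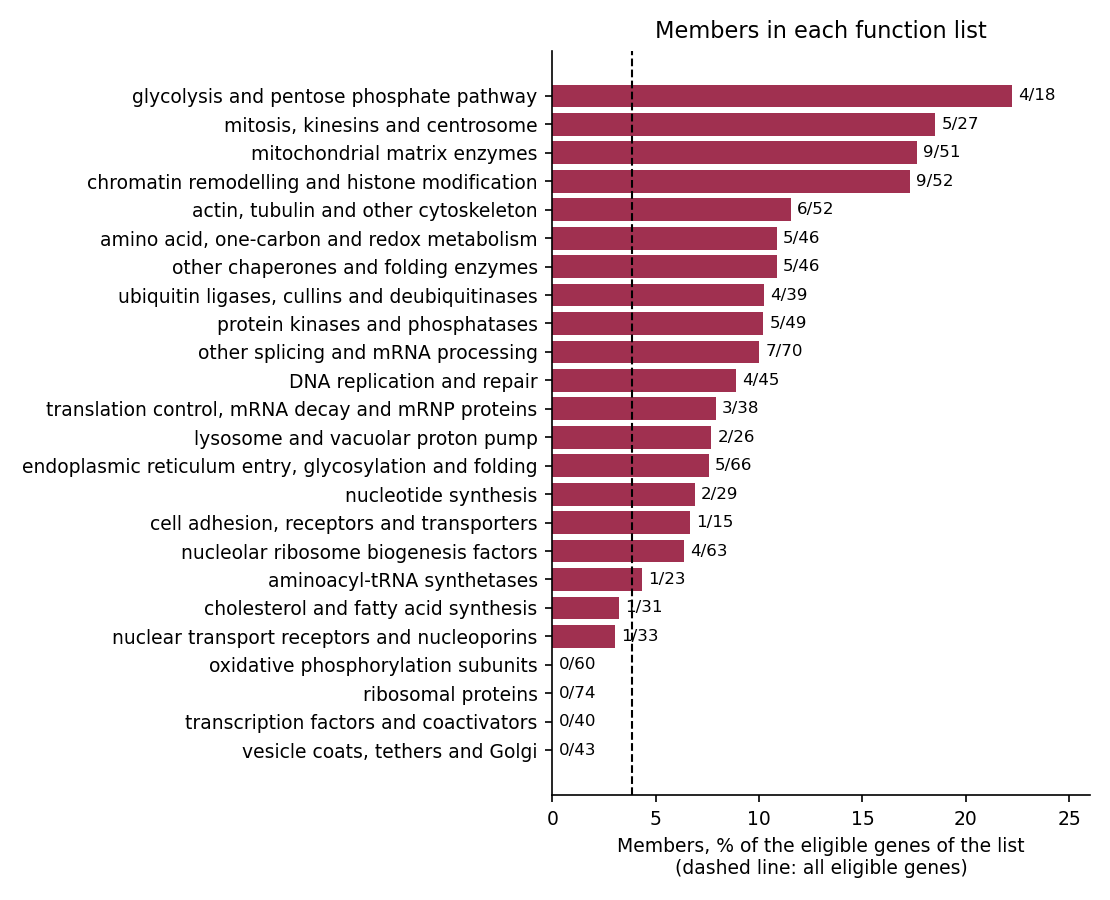
Bars give the members as a percent of the eligible genes in each of 24 function lists, with both counts printed; the dashed line marks the 3.86% of all eligible genes. Glycolysis, mitosis, mitochondrial matrix enzymes and chromatin stand between 17.3% and 22.2%, and 4 lists hold no member. Glycolysis falls to 1 gene without genes that share sequence with another locus, and mitosis to 1, matrix enzymes to 2 and chromatin to 4 genes without the light polysome library.

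Enzymes of the mitochondrial matrix gave 9 of 51 eligible genes (17.6%), and the median heavy share of the list was 71.0%. With members chosen again the count was 5 at a minimum of 50 counts, 4 with TMM and with DESeq2 size factors, 5 with the dropped symbols kept and 2, near the share of all eligible genes, without the light polysome library in the denominator. DLD led the 9. PDHA1, the catalytic subunit of pyruvate dehydrogenase, had 7, 21, 36 and 479 counts (83.7%), and GOT2, the mitochondrial aspartate transaminase, 4, 20, 31 and 341 (82.3%). IDH3A (82.8%) and IDH3B (80.8%), subunits of the NAD-dependent isocitrate dehydrogenase, were members, while their partner IDH3G lay at 62.9% (56.7 to 68.7). IDH2 (80.9%), the fumarase FH (80.8%), HADH (80.8%) and the protease AFG3L2 (82.9%) completed the group. Some other enzymes of the cycle were lower, with 63.7% for MDH2 and 53.4% for the citrate synthase CS. None of 60 eligible subunits of oxidative phosphorylation was a member. Their median heavy share was 33.1% and their median coding length 417 nt, against 1356 nt for the matrix enzymes. None of 74 ribosomal protein genes (median share 12.7%, median coding length 454.5 nt) was a member either. With members at 3.86% of all eligible genes, lists of this size can hold few or none. Under other settings at most 3 oxidative phosphorylation genes were chosen.

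Genes of cell division and chromatin were also among the members. Of 27 eligible mitosis genes 5 were members (18.5%): the cyclins CCNB1 (3, 26, 41 and 498 counts, 85.2%) and CCNA2 (3, 16, 43 and 358 counts, 82.3%), the centrosomal kinase NEK2 (84.9%), and the dynein and dynactin subunits DYNC1LI1 (82.4%) and DCTN2 (81.3%). Of 52 chromatin genes 9 were members (17.3%), among them ANP32A, HDAC2 (85.0%), the helicase RUVBL1 (82.9%), the remodelling subunits SMARCB1 (81.9%) and MTA2 (81.4%), and EED. With the light polysome library left out of the denominator, 1 mitosis gene and 4 chromatin genes were chosen, so the mitosis count is then at the share of all eligible genes. The chromatin count was also 4 at a minimum of 50 counts, and 5 with no scaling and without the free library. DNA replication gave 4 of 45: FEN1 (84.8%), CDC45 (83.6%) of the replicative helicase, RRM2 (81.9%) and PCNA. Neither the 40 eligible transcription factors and coactivators nor the 43 genes of vesicle coats and Golgi included a member. With members at 3.86% of all eligible genes, lists of this size can hold none. Their median heavy shares, 51.7% and 57.0%, were above the 44.8% of all eligible genes.

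The cytoskeleton gave 6 of 52 genes. Of the Arp2/3 complex, which nucleates branched actin, the actin-related subunits ACTR2 (1, 23, 19 and 265 counts, 83.8%) and ACTR3 (1, 28, 22 and 277 counts, 82.1%) were members. The other eligible subunits and paralogues lay lower, with 61.1% for ARPC2, 47.8% for ARPC5, 43.2% for ARPC5L, 41.9% for ARPC4, 37.6% for ARPC3 and 36.7% for ACTR3B. ARPC1A had 35 counts and ARPC1B none, so neither was eligible. The coding sequences of ACTR2 and ACTR3 are 1182 nt and 1254 nt long, and those of the eligible ARPC genes run from 453 nt (ARPC5) to 900 nt (ARPC2). ACTR3B, the paralogue of ACTR3, also has 1254 nt. Whether length bears on these shares was not tested. ACTG1, the gamma-actin, ranked 159 at 80.2% (79.2 to 81.2), and its interval overlapped that of ACTB.

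Chaperone partners outside the dropped HSP and CCT symbols gave 5 of 46 genes: NUDC, DNAJA1 (86.2%), FKBP4, AHSA1 (1117 counts) and PPID, of which FKBP4, AHSA1 and PPID bind HSP90. mRNA processing gave 7 of 70, with ILF2 (81.8%), U2AF2 (82.0%), which reads the pyrimidine tract before exons, and QKI (83.4%) among them. mRNP proteins gave 3 of 38 (SSB, G3BP2 and SERBP1), and nucleolar factors 4 of 63 (NPM1, NCL, SURF6 and UTP18). Amino acid and redox metabolism gave 5 of 46, kinases and phosphatases 5 of 49 and the ubiquitin group 4 of 39, among them SAE1 (82.0%) and UBA3 (80.8%), which belong to the enzymes that activate ubiquitin-like proteins. Entry into the endoplasmic reticulum gave 5 of 66, led by SEC63 (86.6%) and including PDIA6 (82.6%). The remaining 69 members were in no list, among them AASDHPPT, PTOV1 and CLEC2D.

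Pairwise ratios of the heavy polysome library against the others are built from the same values as the rule. A log2 ratio of CPM after adding 0.5 to each count was set against the median eligible gene, and called at 2-fold or more. Against the free library 128 members were called higher (26.8% of all eligible genes were), against the monosome library 148 (25.6%), and against the light polysome library 150 (29.7%). On the log2 scale the median member lay 1.99 above the median gene in the ratio to free and 2.91 in the ratio to light polysomes, the largest of the 3.

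Light polysome and monosome CPM both enter the denominator of the rule, and light polysomes are its larger part (a median of 31.2% of the summed CPM in eligible genes, against 13.3% for monosomes). The ratio between them is therefore not independent of the rule, and is given as a description that supports nothing further. Whether the choice by heavy share itself lowers this ratio was not tested. More light polysome than monosome CPM was found in 109 of 150 members and in 3199 of 3891 eligible genes, a larger proportion. The log2 ratio of light polysome over monosome lay at a median of -0.39 relative to the median gene, and 98 of 150 members were below it. A ratio 2-fold or more lower was found in 42 members (19.2% of eligible genes had one), and a ratio 2-fold or more higher in 14 (18.4%). ILF2, with 94 monosome and 54 light polysome counts, lay at -2.03 (-2.55 to -1.54), and NCL, with 128 and 88, at -1.78 (-2.19 to -1.38). NPM1 lay at -1.27 (-1.43 to -1.12) and CLEC2D at -1.18 (-1.38 to -0.98). At the other end LMNB2, with 10 and 92 counts, lay at 1.90 (1.02 to 3.07), and U2AF2, with 17 and 109, at 1.41 (0.70 to 2.27). Codon composition moved with this ratio inside the set: median GC3 was 39.1% in the 42 members on the monosome side, 54.8% in the 94 between and 73.5% in the 14 on the light polysome side. The same classes of all eligible genes had 46.4%, 63.1% and 74.1%. An upstream ATG was found in 14 of 42 (33.3%), 29 of 93 (31.2%) and 4 of 14 (28.6%) members of these classes. These counts are too small to show whether upstream ATGs follow the ratio. In the same classes of eligible genes it was 55.6%, 49.0% and 56.8%.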

How the data were processed

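The authors deposited whole-number counts per gene with no scaling, 1 column per gradient pool. The submitters' processing notes name hg38, featureCounts of Subread 1.6.2 and minimap2 2.15. Which annotation release they counted against, whether strand was used and how reads with several alignments were handled are points not given in the sources used here. The members and the function lists were chosen with earlier results of these data known.

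Counts were divided by library totals. The total of the free library is the smallest, and 1 count there is 2.81 CPM, against 0.639 CPM in the heavy polysome library. Intervals of a heavy share use the delta method on the logit scale, those of a share of genes are Clopper-Pearson, and those of a median are exact binomial order-statistic intervals that take genes as independent draws; all are at 95%. The share and its interval were tested on simulated data. With 1 library per pool neither edgeR's quasi-likelihood test nor another replicate test could be fitted; edgeR 4.0.16 (TMM) and DESeq2 1.42.0 (size factors) served only as alternative scalings in R 4.3.3.

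Transcript features came from GENCODE 29 on the same build, with 1 principal transcript per gene, and all 150 members and 3887 of 3891 eligible genes matched. Shared stretches were found with BLAST 2.17.0. Start windows are from RefSeq. Named genes were the 20 members of highest share, the 15 most counted, the 5 on each side of the border, the 3 longest and 5 shortest, the most counted of each list with 3 or more members, the 5 highest dropped genes and the 3 with the most free counts; the text leaves some out, and a few genes are not reported here. Pathway partners, CLEC2D's and other shared loci, and genes at the ends of a feature were named after their values were seen. Analyses used matplotlib 3.10.9, scipy 1.17.1, pandas 2.3.3 and numpy 2.4.6 under Python 3.11.15.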

Additional observations from a re-analysis of the deposited data

How the results depend on the processing

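Members were chosen again under 17 alternatives. Under all 17 the chosen genes had a longer median coding length and fewer upstream ATGs (30.2% to 38.4%) than the eligible genes. GC3 was lower under 16, the exception being the denominator without the light polysome library. The GC3 difference was small at a minimum of 500 counts, with 61.6% in chosen and 63.9% in eligible genes. No ribosomal protein gene entered under any of the 17 alternatives, and at most 3 oxidative phosphorylation genes did. The cause of these shifts was not tested.

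The median heavy share was 84.9%, 81.5% and 77.9% at a minimum of 50, 200 and 500 counts, 81.9% with 0.5 added to each count, 81.9% with a free count of 0 set to 3, 69.2% with TMM, 68.7% with DESeq2 size factors, 76.3% with totals without ribosomal protein genes and 85.5% with no scaling. It was 85.0%, 89.3% and 94.2% with the free, monosome or light polysome library left out of the denominator, and 85.1% and 80.4% for the top 75 and top 300. The median heavy share of all eligible genes moved too, to 30.1% at a minimum of 500 counts, 28.0% with TMM and 71.9% without the light polysome library. Coding length was 1179 nt and 1123.5 nt at a minimum of 200 and 500 counts, where all eligible genes had 864 nt and 681 nt. Median GC3 was 57.4% and 61.6% at these minimums, 45.4% and 69.9% without the monosome or light polysome library, and 56.2% when genes were ranked by the lower counting bound. Members kept numbered 93, 95 and 38 at a minimum of 50, 200 and 500 counts, 60 without the light polysome library, and 75 in the top 75. Members in any list numbered 43 without the light polysome library, 38 in the top 75 and 155 in the top 300. The alternative that removed genes sharing sequence with another locus was chosen after seeing the data, as were the results on GC3 and upstream ATGs; it kept 128 members with a median share of 82.6%. The ratio of light polysome over monosome stayed between -0.34 and -0.39. Depth limits the free library most, where 104 members had fewer than 3 counts. The rule itself also favours genes with few free counts.

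No paired analysis was possible because each pool has 1 library. Leaving out a replicate does not apply for the same reason.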
